A study of Mus musculus with 12 samples.

Results

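The genes described here are neuronal differentiation and neuron marker genes, followed in mouse neural stem cells whose JMJD3 was knocked down. They were chosen as the array probes, other than control spots, that the scanner files name after 1 of 39 listed genes. Of these, 38 were found, out of 31896 genes on the array, through 51 probes. The listed gene Map2 stands in the files under its older name Mtap2 and is given apart. Of the 38 genes, 32 had a probe whose signal stood well above background on every array of 1 group or more, and these were tested among 24146 such genes.

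Neural stem cells of the cerebral cortex divide and later leave the cycle as neurons, which switch on cytoskeletal, synaptic and secretory genes that stem cells keep low. In stem cells and non-neuronal cells many of these genes are held down by REST, a zinc finger repressor that binds a DNA motif called RE1 and recruits the SIN3 and CoREST corepressors with their histone deacetylases. Syn1, Scg2 and Stmn2 are well known carriers of that element. JMJD3, the protein of Kdm6b, is a demethylase that takes a mark of silenced developmental genes, the trimethylation of lysine 27, off histone H3.

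All cells were neural stem cells dissected from the cerebral cortex of E12.5 mouse embryos and stably transfected with an shRNA. The 4 groups, with 3 arrays each, were JMJD3 knockdown cells with TGFb, control cells with TGFb, JMJD3 knockdown cells with vehicle and control cells with vehicle. Knockdown cells carried a single shRNA against JMJD3, labelled sh2 JMJD3, and control cells carried an shRNA of random sequence. TGFb, a secreted growth factor, was given at 5 ng/ml for 2.5 h. The labels do not state whether the replicates are separate cultures, so that each p-value describes the spread among these arrays and that spread may be technical. The cells are a bulk culture, in which fewer cells of a type and less RNA per cell cannot be told apart.

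A level is given below as the log2 of the processed signal relative to the 75th percentile of its array, and a change as the difference of 2 such group means with the standard error (SE) of the fit. Called means an adjusted p under 0.05 by limma over all 24146 genes. The 75th percentile ran from 3175 to 4462 intensity units over the arrays, and the share of probes well above background lay between 70.2% (knockdown vehicle replicate 3) and 78.4%. The neural stem cell and radial glia markers were well above background on all 12 arrays for 10 of 10 genes, among them Nes, Sox2 and Pax6. Of 9 mature neuron markers 5 were well above background on all 12 arrays, and Slc17a7 and Gad2 were on none. Kdm6b itself had levels of -1.95, -1.90 and -1.96 in knockdown cells with vehicle, against -0.84, -0.73 and -0.75 in control cells. Its change was -1.16 ± 0.05 with vehicle (adjusted p = 1.05e-07) and -1.40 ± 0.05 with TGFb (adjusted p = 2.85e-08).

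The array holds a pair of kept Rest probes, shown here because they gave different results. Both are written 5′ to 3′ in lower case, and both lie on the plus strand of chromosome 5 (mm9). The first, 60 bases, covers chr5:77704280-77704339 and starts at transcript base 1208. The second covers chr5:77711857-77711916 and starts at transcript base 3400.
Rest probe 1: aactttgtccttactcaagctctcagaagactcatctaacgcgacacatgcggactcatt
Rest probe 2: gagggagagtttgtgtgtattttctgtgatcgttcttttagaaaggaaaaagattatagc

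Promoters of 23 of the 38 genes were matched in RefSeq (GRCm38.p6), each from 250 bases before to 50 bases after the start of the gene. They were searched on both strands for the left part of the RE1 motif (TTCAGCACC), its right part (GGACAG) and the cAMP response element (TGACGTCA), motifs that were chosen after the values below had been seen. The left part was found in 2 of the 23 promoters (Scg2 and Syn1), against 0.433% of 27025 genes with a promoter. Both genes were named above as known carriers of RE1, so that this count is not a test of the listed genes. The cAMP response element was found in 3 (Chgb, Scg2 and Syn1), against 2.03% of genes, and the right part in 9, against 24.7% of genes. The 3 promoters with a cAMP response element are shown, with the motifs found in capitals and in the direction of the gene.
Scg2 promoter, chr1:79439977-79440276, minus strand: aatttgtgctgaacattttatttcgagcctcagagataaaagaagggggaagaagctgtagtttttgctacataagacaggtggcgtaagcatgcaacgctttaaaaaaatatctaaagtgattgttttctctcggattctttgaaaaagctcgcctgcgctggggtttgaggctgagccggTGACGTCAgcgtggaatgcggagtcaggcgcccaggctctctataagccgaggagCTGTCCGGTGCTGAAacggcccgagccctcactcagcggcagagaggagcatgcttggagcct
Syn1 promoter, chrX:20920869-20921168, minus strand: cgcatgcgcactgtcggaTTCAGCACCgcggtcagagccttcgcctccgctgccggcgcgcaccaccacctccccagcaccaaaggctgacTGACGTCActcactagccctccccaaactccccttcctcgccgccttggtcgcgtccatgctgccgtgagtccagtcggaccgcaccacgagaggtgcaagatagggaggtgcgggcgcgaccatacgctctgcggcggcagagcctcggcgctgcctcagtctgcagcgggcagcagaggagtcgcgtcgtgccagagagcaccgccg
Chgb promoter, chr2:132781392-132781691, plus strand: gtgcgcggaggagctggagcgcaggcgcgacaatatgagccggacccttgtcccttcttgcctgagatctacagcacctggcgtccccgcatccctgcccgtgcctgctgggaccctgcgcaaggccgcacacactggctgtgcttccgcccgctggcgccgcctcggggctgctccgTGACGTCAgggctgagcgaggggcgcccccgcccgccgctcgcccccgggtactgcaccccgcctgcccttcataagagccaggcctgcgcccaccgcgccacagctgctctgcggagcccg
In Scg2 both RE1 parts lie next to each other on the opposite strand, starting at -13 (CTGTCC) and -7 (GGTGCTGAA) relative to the start of the gene, and the cAMP response element starts at -68. In Syn1 the left part starts at -232 and the cAMP response element at -159, and in Chgb that element starts at -72. No match overlapped another. A match describes these letters only and shows no binding.

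The first comparison asked how the knockdown cells differed from control cells without TGFb. Of the 32 tested genes, 20 rose, 4 fell and 8 were not called, so that 75% were called, against 27.8% of all genes tested, of which 3020 rose and 3702 fell. The median change of the 32 genes was 0.42, against -0.02 over all genes. Among those that rose, 10 did so at least 2-fold. Of these, Atcay and Dcx fell short of 2-fold with the normexp background correction (0.55 and 0.39 on the log2 scale). They also did so with the authors' deposited values (0.63 and 0.45). The lowest changes over the alternative settings were 0.81 for Elavl2, 0.86 for Scg2 and 0.89 for Syt1. The arrays of the groups did not overlap for 20 genes that were higher and 5 that were lower in knockdown cells, where 41.1% of all genes did not overlap (4325 higher and 5598 lower). The listed genes were chosen with earlier results of these data known. A share of them above that of all genes, here or below, may come from that choice.

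With TGFb in both lines, 18 of the 32 genes rose in knockdown cells, 4 fell and 10 were not called. That is 68.8% called, against 29% of all genes, of which 2902 rose and 4096 fell. The median change was 0.35, against -0.01 over all genes, and 9 genes rose at least 2-fold. Of these, Atcay fell short of 2-fold with normexp (0.48 on the log2 scale) and with the authors' values (0.54). Higher in knockdown cells without overlap were 18 genes and lower were 4, where 38.7% of all genes did not overlap (3876 higher and 5471 lower). The group means of the vehicle and TGFb comparisons share no arrays. Both comparisons come from a single fit with a shared estimate of the spread, and from the same knockdown and control cells. Agreement between them is therefore not independent. Of the tested genes, Atcay passed the filter through the knockdown groups alone, where it was high. Among the 30 genes well above background on all 12 arrays, 19 rose with vehicle (9 at least 2-fold) and 17 with TGFb (8 at least 2-fold), and 4 fell under each treatment. The 18 genes that rose with TGFb were all among the 20 that rose with vehicle, with Chgb and Mapt called with vehicle and not with TGFb, and the same 4 genes fell in both. With the slide as a block Mapt was called with TGFb as well (0.41, adjusted p = 0.000787).

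**Figure D1:**
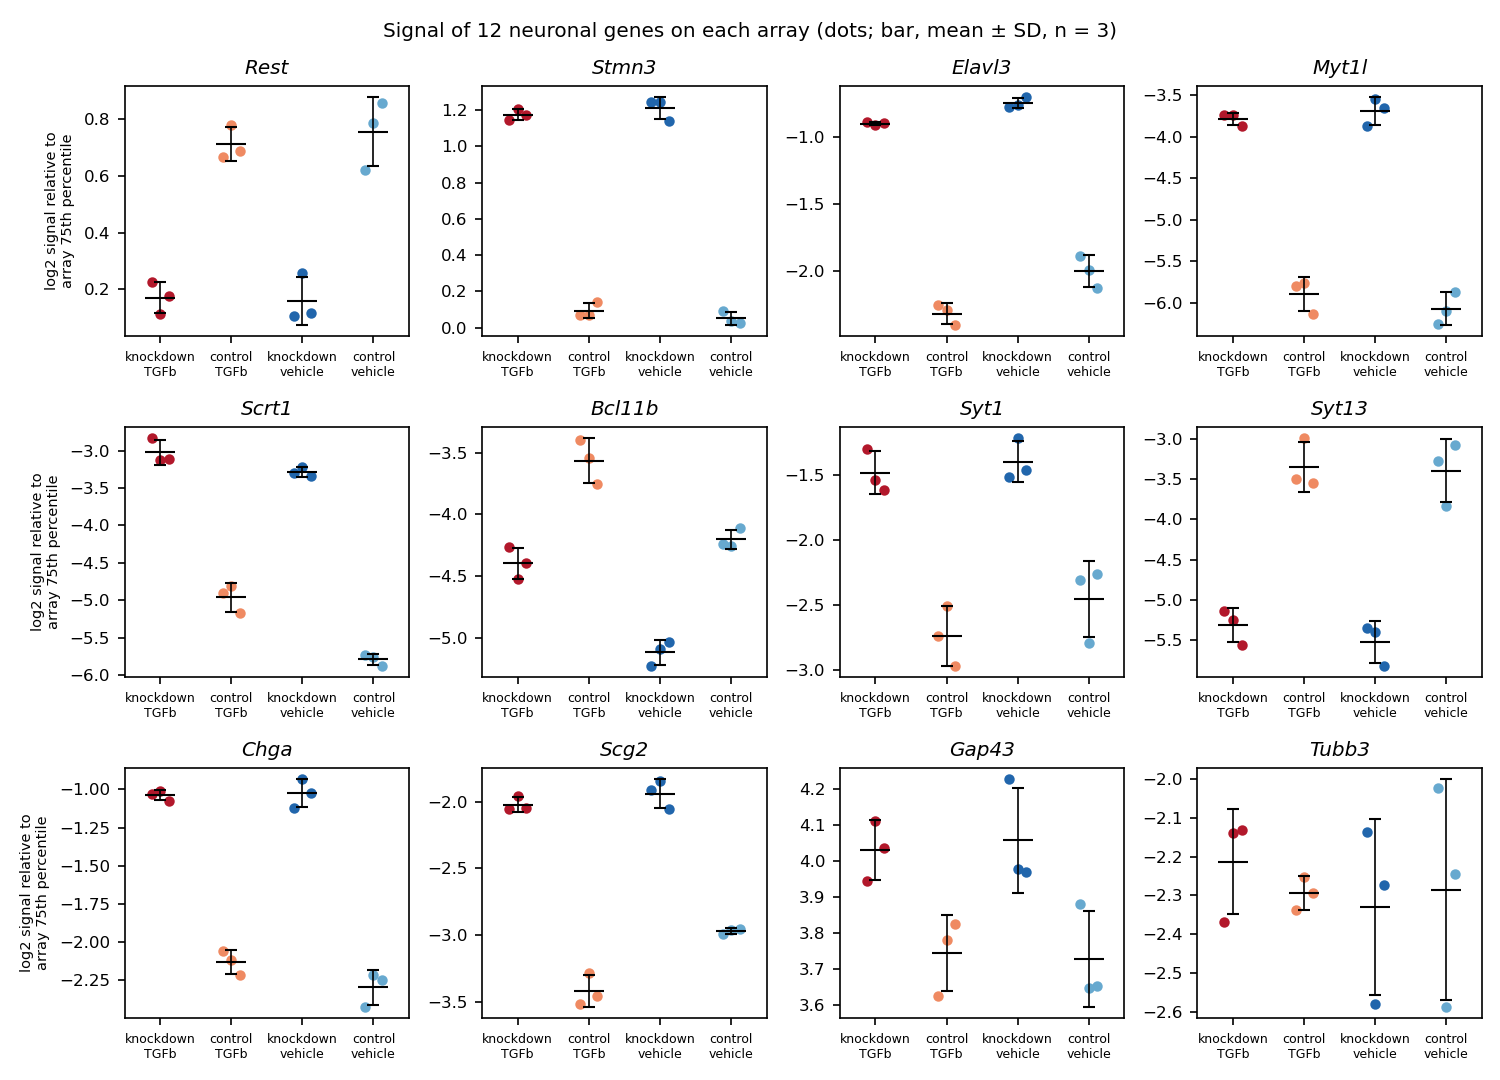
Levels of 12 genes on each array (dots), with the mean ± SD of the 3 arrays of a group, on the log2 scale relative to the 75th percentile of the array. From left to right the groups are knockdown with TGFb, control with TGFb, knockdown with vehicle and control with vehicle. For Rest the 6 knockdown arrays lie below the 6 control arrays, for Stmn3, Elavl3, Myt1l, Scrt1, Chga and Scg2 they lie above, and for Tubb3 they overlap.

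The repressor gene Rest was lower in knockdown cells. With vehicle its first probe had levels of 0.10, 0.26 and 0.12 in knockdown cells, against 0.62, 0.79 and 0.86 in control cells. With TGFb the levels were 0.22, 0.11 and 0.17 in knockdown cells, against 0.67, 0.78 and 0.69 in control cells. All 6 knockdown arrays lay below all 6 control arrays. The change was -0.60 ± 0.07 with vehicle, or 1.51-fold less (limma adjusted p = 6.2e-05), and -0.54 ± 0.07 with TGFb, or 1.46-fold less (adjusted p = 0.000124). On each slide taken alone it lay between -0.74 and -0.52 with vehicle, and between -0.56 and -0.54 with TGFb. The second Rest probe was not called: its change was -0.14 ± 0.09 with vehicle (adjusted p = 0.296) and -0.23 ± 0.09 with TGFb (adjusted p = 0.0624), in a fit over all kept probes. The mean of both probes gave -0.37 with vehicle (adjusted p = 0.000533).

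Of 11 genes of the corepressor complexes that REST recruits, all tested, 1 rose and 3 fell with vehicle, so that 36.4% were called, against the 27.8% over all genes. Rcor3, a CoREST family member, changed by -0.45 ± 0.08 and Rcor2, another, by -0.28 ± 0.07. The deacetylase gene Hdac1 rose by 0.21 ± 0.06, and Sin3b fell by 0.20 on the log2 scale. With TGFb, 1 rose and 2 fell (27.3% called, against 29%), with Rcor3 at -0.63 ± 0.08 and Sin3b at -0.27 ± 0.05. The change of Sin3b with vehicle was 0.01 with the mean of its kept probes (adjusted p = 0.937), -0.10 with quantile normalization (adjusted p = 0.14) and -0.06 with the authors' values (adjusted p = 0.536).

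Among the transcription factors, 3 of the 7 tested rose in knockdown cells under each treatment (Scrt1, Myt1l and Ebf2), and 2 fell (Bcl11b and Ebf3). The share called was 71.4% under each treatment, against 27.8% and 29% of all genes. Scrt1, a neural zinc finger repressor of the Snail family, had levels of -3.30, -3.21 and -3.34 in knockdown cells with vehicle, against -5.73, -5.76 and -5.88 in control cells. With TGFb it had -2.84, -3.13 and -3.11 in knockdown cells, against -4.90, -4.81 and -5.17 in control cells. The groups were far apart under both treatments, with a change of 2.50 ± 0.11 with vehicle, or 5.68-fold (limma adjusted p = 9.66e-08), and 1.94 ± 0.11 with TGFb (adjusted p = 5.61e-07).

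Myt1l, a zinc finger factor that keeps non-neuronal genes silent in neurons, had levels of -3.87, -3.55 and -3.66 in knockdown cells with vehicle, against -6.25, -6.09 and -5.86 in control cells. Its levels with TGFb were -3.74, -3.74 and -3.87 in knockdown cells, against -5.79, -5.76 and -6.13 in control cells. All 6 knockdown arrays lay above all 6 control arrays. Its change was 2.38 ± 0.14 with vehicle (limma adjusted p = 4.33e-07) and 2.11 ± 0.14 with TGFb (adjusted p = 1.09e-06). The 2 other kept Myt1l probes passed the filter through knockdown cells alone: 1 was well above background on 1 control array under each treatment, the other on 2 control arrays with vehicle and 0 with TGFb. They are not used here to support the change. Its size differed with the background correction: with normexp the changes were 1.42 and 1.27, and with the authors' deposited values 1.45 and 1.31.

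Bcl11b, a zinc finger factor of deep layer cortical neurons, was lower in knockdown cells. Its levels were -5.23, -5.09 and -5.04 in knockdown cells with vehicle, against -4.24, -4.25 and -4.11 in control cells. With TGFb they were -4.27, -4.52 and -4.40 in knockdown cells, against -3.40, -3.54 and -3.76 in control cells. The groups did not overlap under either treatment, and the change was -0.92 ± 0.11 with vehicle (limma adjusted p = 9.35e-05) and -0.83 ± 0.11 with TGFb (adjusted p = 0.000188). The other Bcl11b probe fell as well, by 0.83 on the log2 scale with vehicle and by 0.80 with TGFb. With the authors' values the vehicle change of Bcl11b was -0.59 (adjusted p = 0.00131).

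The EBF genes, helix-loop-helix factors of differentiating neurons, did not share a direction. Ebf2 rose by 0.58 ± 0.09 with vehicle and by 0.63 ± 0.09 with TGFb (limma adjusted p = 0.000412 and 0.000239). Ebf3 changed by -0.24 ± 0.04 with vehicle (adjusted p = 0.00166) and -0.17 ± 0.04 with TGFb (adjusted p = 0.0125). Both Ebf3 calls were lost with scaling to the array median (-0.23 and -0.21, adjusted p = 0.0623 and 0.0831), and the call with TGFb also with only the arrays of the 2 groups (adjusted p = 0.0561). Ebf1 was not called (adjusted p = 0.531 and 0.993). Scrt2, a relative of Scrt1, changed by 0.04 ± 0.21 and 0.37 ± 0.21 and was not called. Without knockdown TGFb replicate 1 the change of Scrt2 with TGFb was 0.58 and was called (adjusted p = 0.0384), as it was with array weights (0.59, adjusted p = 0.0338). With normexp the change of Ebf2 with TGFb was 0.40 (adjusted p = 0.00285).

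The 4 other transcription factor genes did not pass the filter. St18, Nhlh2 and Neurod6, factors of postmitotic neurons, were well above background on 0 of 12 arrays each. Myt1, a relative of Myt1l, was well above background on 2 arrays.

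Of the RNA-binding ELAVL genes, which code for the Hu proteins of neurons, 2 of 3 rose under each treatment. This is 66.7% called, against 27.8% and 29% of all genes. Elavl3 had levels of -0.77, -0.76 and -0.70 in knockdown cells with vehicle, against -1.89, -1.99 and -2.13 in control cells. In the presence of TGFb the levels were -0.89, -0.91 and -0.90 in knockdown cells, against -2.26, -2.30 and -2.41 in control cells. The knockdown arrays lay above the control arrays by more than the spread of either, with a change of 1.26 ± 0.06 with vehicle (limma adjusted p = 1.83e-07) and 1.42 ± 0.06 with TGFb (adjusted p = 8.29e-08).

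Elavl2 had levels of -1.46, -1.51 and -1.53 in knockdown cells with vehicle, against -2.58, -2.59 and -2.57 in control cells. Its arrays with TGFb read -1.53, -1.45 and -1.49 in knockdown cells, against -2.72, -2.75 and -2.72 in control cells. Replicates lay within a narrow band and the lines did not overlap, with a change of 1.08 ± 0.05 with vehicle and 1.24 ± 0.05 with TGFb (limma adjusted p = 8.57e-08 and 2.85e-08). A second Elavl2 probe rose by 0.55 and 0.77. Elavl4 was not called, at -0.14 ± 0.11 with vehicle and -0.10 ± 0.11 with TGFb. Its other probe, on the same chromosome 4, was called with vehicle at -0.36 ± 0.09 (adjusted p = 0.0149) and had 0.01 ± 0.09 with TGFb. With the mean of both probes Elavl4 fell with vehicle (-0.25, adjusted p = 0.00553), and with the slide as a block it fell with TGFb (-0.22, adjusted p = 0.0489).

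Among microtubule and neurofilament genes, 5 of the 7 tested rose with vehicle and 4 with TGFb, and none fell. These calls make up 71.4% and 57.1%, against 27.8% and 29% of all genes. Stmn3, a stathmin that binds tubulin, had levels of 1.25, 1.24 and 1.14 in knockdown cells with vehicle, against 0.09, 0.04 and 0.02 in control cells. With TGFb it had 1.15, 1.21 and 1.17 in knockdown cells, against 0.07, 0.07 and 0.14 in control cells. The lines were separated by far more than the spread of replicates under both treatments. The change was 1.16 ± 0.04 with vehicle, or 2.23-fold (limma adjusted p = 3.46e-08), and 1.08 ± 0.04 with TGFb (adjusted p = 4.17e-08).

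Dcx, the microtubule protein doublecortin of migrating neurons, had levels of -6.30, -5.81 and -5.90 in knockdown cells with vehicle, against -7.43, -6.77 and -7.19 in control cells. The arrays with TGFb gave -6.01, -6.04 and -6.22 in knockdown cells, against -7.19, -6.70 and -7.09 in control cells. All knockdown arrays lay above all control arrays, and this probe was well above background on all 12. The change was 1.13 ± 0.21 with vehicle (limma adjusted p = 0.00181) and 0.91 ± 0.21 with TGFb (adjusted p = 0.00659). With normexp it was 0.39 and 0.27, and the call with TGFb was lost (adjusted p = 0.125). The authors' values gave 0.45 and 0.31. The 2 other Dcx probes were well above background on 0 and 2 of 12 arrays.

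The intermediate filament genes Nefm and Ina rose less. Nefm changed by 0.44 ± 0.10 with vehicle and 0.37 ± 0.10 with TGFb (limma adjusted p = 0.0065 and 0.0148). With normexp the values were 0.25 and 0.19, the second not called (adjusted p = 0.125), and without control TGFb replicate 3 the change with TGFb was 0.32 (adjusted p = 0.0508). Ina changed by 0.41 ± 0.08 with vehicle and 0.33 ± 0.08 with TGFb (adjusted p = 0.0024 and 0.00839). The call of Ina with TGFb was lost with normexp (adjusted p = 0.0568) and with the authors' values (adjusted p = 0.0617). The light neurofilament gene Nefl changed by -0.09 ± 0.26 and -0.24 ± 0.26 and was not called.

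Mapt, the gene of tau, changed by 0.43 ± 0.12 with vehicle (limma adjusted p = 0.022) and 0.27 ± 0.12 with TGFb (adjusted p = 0.126). Its 2 other probes were called under both treatments, with changes of 0.52 and 0.51 with vehicle and 0.46 and 0.75 with TGFb. The vehicle call was lost without control replicate 1 (0.39), control replicate 3 (0.41), knockdown replicate 2 (0.38) or knockdown replicate 3 (0.42), with adjusted p between 0.0651 and 0.0795. The change with TGFb was called with the slide as a block (0.41, adjusted p = 0.000787), with the mean of the 3 probes (0.49, adjusted p = 0.00162) and without control TGFb replicate 1 (0.37, adjusted p = 0.0491).

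Tubb3, the class III beta tubulin widely used to mark young neurons, was not called. It had levels of -2.14, -2.58 and -2.27 in knockdown cells with vehicle, against -2.02, -2.59 and -2.24 in control cells. Under TGFb its levels were -2.37, -2.14 and -2.13 in knockdown cells, against -2.34, -2.25 and -2.29 in control cells. The groups overlapped, and the changes were -0.04 ± 0.14 and 0.08 ± 0.14. Map2, the dendritic microtubule protein, changed by 0.11 ± 0.05 with vehicle (limma adjusted p = 0.151) and 0.17 ± 0.05 with TGFb (adjusted p = 0.0257). The call with TGFb held under 16 of 24 alternative settings. It was lost, among others, with normexp (0.13, adjusted p = 0.152) and with the mean of its probes (0.13, adjusted p = 0.0641). Its other probe was not called with vehicle (0.14 ± 0.05) or TGFb (0.09 ± 0.05). The vehicle change was called with the authors' values (0.19, adjusted p = 0.0204) and with quantile normalization (0.16, adjusted p = 0.0299).

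Stmn2, another stathmin, was well above background on 4 arrays, all of knockdown cells, and did not pass the filter. Its levels were -7.78, -7.79 and -8.58 in knockdown cells with vehicle, against -10.41, -10.34 and -9.70 in control cells. With TGFb they were -7.04, -8.01 and -8.63 in knockdown cells, against -9.70, -10.46 and -9.54 in control cells. The knockdown arrays lay above the control arrays, of which 0 of 6 were well above background. In a fit without the filter on dim probes Stmn2 was called with an adjusted p of 0.00375 with vehicle and 0.00468 with TGFb.

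**Figure D2:**
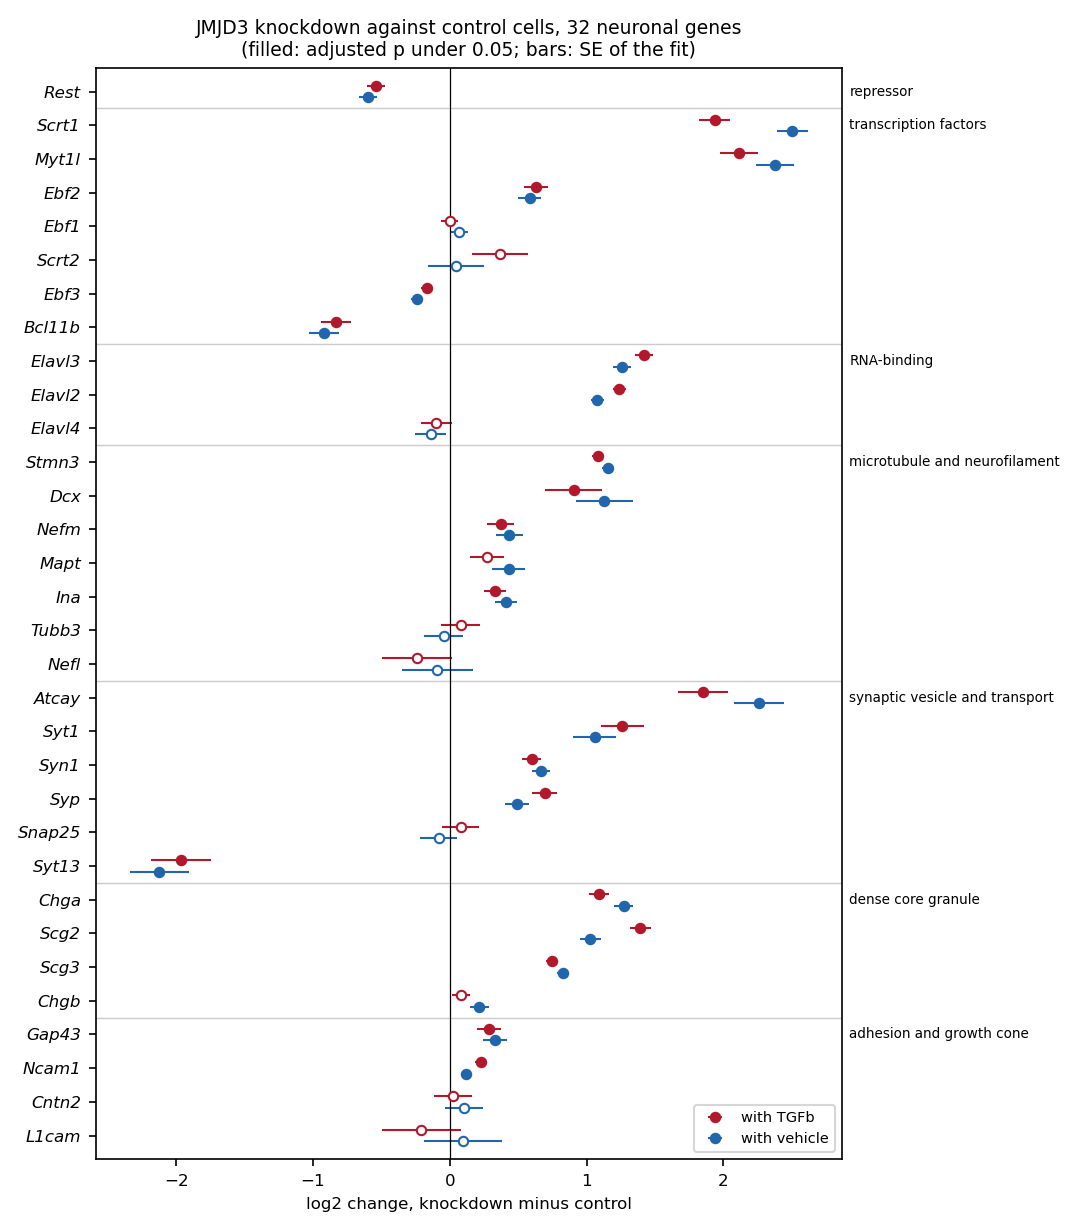
Change of each of the 32 tested genes between knockdown and control cells (log2, knockdown minus control), with TGFb above and with vehicle below in each row; bars are the SE of the fit and filled points have an adjusted p under 0.05. Genes run by role from top to bottom. Most filled points lie to the right of 0, from Ncam1 at 0.12 to Scrt1 at 2.50, and Rest, Ebf3, Bcl11b and Syt13 lie to the left under both treatments.

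Of the synaptic vesicle and transport genes, 4 of the 6 tested rose under each treatment, and 1 fell. This makes 83.3% called, against 27.8% and 29% of all genes. Atcay, the gene of the neuronal protein caytaxin, had levels of -6.25, -5.92 and -6.10 in knockdown cells with vehicle, against -8.44, -8.03 and -8.58 in control cells. With TGFb it had -6.10, -6.40 and -6.21 in knockdown cells, against -8.03, -8.09 and -8.15 in control cells. The lines did not overlap, and 2 of the 3 control arrays in each treatment were well above background, so that Atcay was tested only because of its signal in knockdown cells. The change was 2.26 ± 0.18 with vehicle (limma adjusted p = 5.02e-06) and 1.85 ± 0.18 with TGFb (adjusted p = 2.36e-05). With normexp it was 0.55 and 0.48, and with the authors' values 0.63 and 0.54, where the direction and call held and the size did not.

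Syt1, the calcium sensor of synaptic vesicle release, had levels of -1.51, -1.21 and -1.46 in knockdown cells with vehicle, against -2.31, -2.79 and -2.26 in control cells. TGFb-treated arrays gave -1.29, -1.53 and -1.61 in knockdown cells, against -2.74, -2.51 and -2.97 in control cells. All knockdown arrays were higher than all control arrays, with a change of 1.06 ± 0.16 with vehicle (limma adjusted p = 0.000426) and 1.26 ± 0.16 with TGFb (adjusted p = 0.000127).

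Syn1, whose protein tethers synaptic vesicles and whose promoter is shown above, had levels of -0.30, -0.11 and -0.20 in knockdown cells with vehicle, against -0.89, -0.77 and -0.95 in control cells. Its levels with TGFb were -0.19, -0.29 and -0.30 in knockdown cells, against -0.77, -0.84 and -0.95 in control cells. The lines did not overlap, and Syn1 rose by 0.67 ± 0.07 and 0.60 ± 0.07. The vesicle membrane gene Syp rose by 0.49 ± 0.09 with vehicle and 0.69 ± 0.09 with TGFb. Adjusted p by limma lay at 3.2e-05 and 7.08e-05 for Syn1 and at 0.00179 and 0.000162 for Syp. Snap25, a SNARE protein of the presynaptic membrane, changed by -0.08 ± 0.13 and 0.08 ± 0.13 and was not called.

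Syt13, a synaptotagmin, was the member that fell most in knockdown cells under both treatments. Its levels were -5.35, -5.39 and -5.82 in knockdown cells with vehicle, against -3.28, -3.84 and -3.08 in control cells. With TGFb they were -5.14, -5.25 and -5.55 in knockdown cells, against -3.50, -3.00 and -3.56 in control cells. The lines were separated by more than the range of either, and the change was -2.12 ± 0.22 with vehicle, or 4.35-fold less (limma adjusted p = 3.12e-05), and -1.97 ± 0.22 with TGFb (adjusted p = 5.51e-05). Syt4, another synaptotagmin, was well above background on 2 of 12 arrays, 1 of knockdown and 1 of control cells, both with vehicle, and did not pass the filter. In a fit without the filter its change was 1.06 ± 0.39 with vehicle (limma adjusted p = 0.0877) and 1.30 ± 0.39 with TGFb (adjusted p = 0.035). With TGFb no array of either line was well above background, so that the second value compares signals near background.

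Of the dense core granule genes, 4 of 4 rose with vehicle and 3 of 4 with TGFb, against 27.8% and 29% of all genes called. Their proteins fill the secretory granules of neurons and endocrine cells. Chga had levels of -1.12, -0.93 and -1.03 in knockdown cells with vehicle, against -2.43, -2.22 and -2.25 in control cells. With TGFb it had -1.03, -1.01 and -1.07 in knockdown cells, against -2.06, -2.11 and -2.22 in control cells. The knockdown arrays lay above the control arrays throughout. Chga rose by 1.27 ± 0.07 with vehicle (limma adjusted p = 3.35e-07) and 1.09 ± 0.07 with TGFb (adjusted p = 1.08e-06).

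Scg2, whose promoter holds both RE1 parts, had levels of -1.91, -1.85 and -2.06 in knockdown cells with vehicle, against -2.99, -2.96 and -2.95 in control cells. On arrays with TGFb it had -2.06, -1.96 and -2.05 in knockdown cells, against -3.51, -3.28 and -3.46 in control cells. The lines did not overlap. Scg2 rose by 1.03 ± 0.08 with vehicle and 1.39 ± 0.08 with TGFb, and Scg3, a granule sorting protein, by 0.83 ± 0.04 and 0.74 ± 0.04. Adjusted p by limma lay at 2.33e-06 and 3.11e-07 for Scg2 and at 2.54e-07 and 6.14e-07 for Scg3.

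Chgb, the granin with a cAMP response element in its promoter, rose by 0.22 ± 0.07 with vehicle (limma adjusted p = 0.0345) and had 0.08 ± 0.07 with TGFb (adjusted p = 0.425). The vehicle call was lost with normexp (0.16, adjusted p = 0.143) and with the authors' values (0.17, adjusted p = 0.157). It was also lost without any 1 of the 6 vehicle arrays, or without knockdown TGFb replicate 3, with changes between 0.19 and 0.24 and adjusted p between 0.0507 and 0.122.

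Of the adhesion and growth cone genes, 2 of 4 (Gap43 and Ncam1) rose under each treatment by their brightest probe. The share called was 50%, against 27.8% and 29% of all genes. For Ncam1 the other kept probes fell, as given below. Gap43, a growth cone protein, had levels of 4.23, 3.98 and 3.97 in knockdown cells with vehicle, against 3.88, 3.65 and 3.65 in control cells. After TGFb its levels were 3.94, 4.11 and 4.03 in knockdown cells, against 3.63, 3.78 and 3.83 in control cells. The lines did not overlap, but the gap was small, with a change of 0.33 ± 0.09 with vehicle (limma adjusted p = 0.0156) and 0.29 ± 0.09 with TGFb (adjusted p = 0.0304). The vehicle call was lost without control replicate 2 or 3 (0.29 each) or knockdown replicate 1 (0.25), with adjusted p between 0.0609 and 0.0649. The call with TGFb was lost without control replicate 1 or 2 (0.23 and 0.30) or knockdown replicate 2 or 3 (0.25 and 0.28), with adjusted p between 0.0596 and 0.109. L1cam and Cntn2, axonal adhesion proteins, were not called, with changes of 0.10 ± 0.29 and 0.11 ± 0.14 with vehicle.

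Ncam1, the neural cell adhesion molecule, has 3 kept probes that did not move together. The brightest rose by 0.12 ± 0.04 with vehicle (limma adjusted p = 0.0407) and 0.23 ± 0.04 with TGFb (adjusted p = 0.00123). The other probes fell. In the fit over all kept probes, in which 28.3% of probes were called with vehicle and 29.4% with TGFb, the probe at chr9:49351182-49351241 (mm9) changed by -0.48 ± 0.09 with vehicle and -0.59 ± 0.09 with TGFb. The probe at chr9:49323381-49323440 changed by -0.76 ± 0.05 and -0.74 ± 0.05. With the mean of the 3 probes Ncam1 was lower in knockdown cells, at -0.37 under each treatment (adjusted p = 6.63e-05 and 7.07e-05). The vehicle rise of the brightest probe was also lost without control vehicle replicate 2 or 3, any 1 knockdown vehicle replicate, control TGFb replicate 1 or 2, or knockdown TGFb replicate 3, with adjusted p between 0.0525 and 0.137 and changes between 0.11 and 0.13. The direction of Ncam1 therefore depends on the probe.

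**Figure D3:**
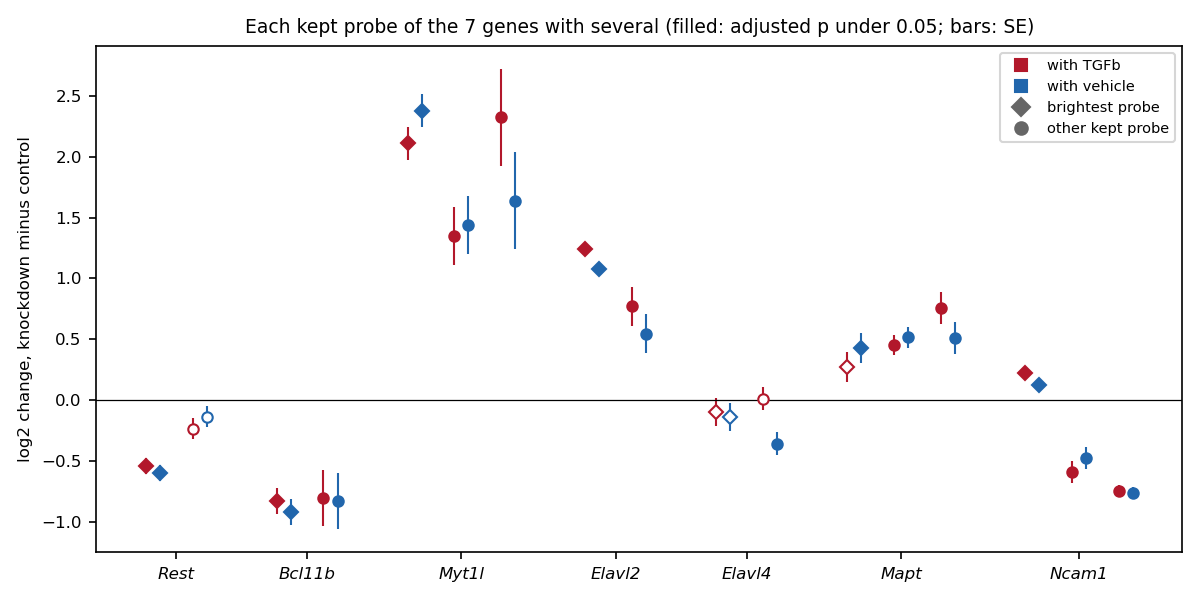
Change between knockdown and control cells (log2, knockdown minus control) for each kept probe of the 7 genes with several, with TGFb in red left of vehicle in blue; diamonds are the brightest probe of a gene, circles the others, bars the SE, and filled points have an adjusted p under 0.05 among all kept probes. The probes of Elavl2, Mapt and Bcl11b lie on the same side of 0, the circles of Myt1l are the probes kept through knockdown cells alone, while those of Ncam1 lie at 0.12 and 0.23 for the brightest and between -0.76 and -0.48 for the others.

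All 24 calls with vehicle and all 22 with TGFb kept their direction within every slide that held both groups. For each of these calls the arrays of the 2 groups did not overlap. The direction within a slide was thereby fixed in advance and adds no support. With the slide as a block, 24 genes were called with vehicle (20 higher and 4 lower) and 24 with TGFb (19 higher and 5 lower). Calls over all genes rose as well, to 9080 with vehicle and 8939 with TGFb, from 6722 and 6998 in the main fit. Scaling to the array median ended the vehicle calls of Mapt, Chgb and Ncam1 (adjusted p = 0.0526, 0.206 and 0.321). With TGFb it ended those of Gap43, Ina, Nefm and Ncam1 (adjusted p = 0.096, 0.0682, 0.084 and 0.112). With only the arrays of the 2 groups, Chgb and Ncam1 were lost with vehicle (adjusted p = 0.0666 and 0.0676) and Nefm with TGFb (adjusted p = 0.0619). The vehicle calls of Chgb and Ncam1 were also lost without the filter (adjusted p = 0.0608 and 0.0575), that of Chgb with quantile normalization (adjusted p = 0.101), and those of Ncam1 with vehicle and Gap43 with TGFb with normexp (adjusted p = 0.0577 and 0.0827).

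Other neuronal genes outside the list were also higher and lower in knockdown cells. Of 37 tested among 40 such genes, 15 rose and 8 fell with vehicle (62.2% called), and 13 rose and 7 fell with TGFb (54.1% called). Over all genes 27.8% and 29% were called. Cplx1, a regulator of vesicle fusion, rose by 1.60 ± 0.07 and 1.47 ± 0.07 (limma adjusted p = 9.66e-08 and 1.71e-07), and the splicing factor gene Rbfox1 by 1.34 ± 0.14 and 1.53 ± 0.14 (adjusted p = 2.94e-05 and 1.18e-05). Crmp1, a growth cone protein, rose by 0.99 ± 0.07 and 1.20 ± 0.07. Rbfox3, which codes for the nuclear antigen NeuN of mature neurons, changed by -1.28 ± 0.09 under each treatment (adjusted p = 2.49e-06 and 2.55e-06).

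Of 9 mature neuron markers 6 were tested, and 0 rose and 2 fell in knockdown cells under each treatment by limma (Rbfox3 and Gad1). That is 33.3% called, near the 27.8% and 29% of all genes. An unadjusted p under 0.05 was found for 2 as well, against 8797 and 9332 of all 24146 genes. The summed signal of the 9 markers, in units of the 75th percentile, ran from 0.280 to 0.324 in knockdown cells with vehicle. In control cells with vehicle it ran from 0.411 to 0.462. With TGFb it ran from 0.421 to 0.438 in knockdown cells, against 0.569 to 0.583 in control cells.

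Markers of the other cell types were measured beside these changes. With vehicle 4 of the 10 markers of stem cells or radial glia were higher in knockdown cells and 2 lower, and with TGFb 3 were higher and 1 lower. That is 60% and 40% called, against 27.8% and 29% of all genes. Sox2, a transcription factor of neural stem cells, rose by 0.74 ± 0.04 and 0.56 ± 0.04, and Nes, an intermediate filament gene of these cells, changed by -0.33 ± 0.08 and -0.25 ± 0.08. Of 6 tested astrocyte markers, 1 rose and 1 fell with vehicle (33.3% called) and 1 rose and 0 fell with TGFb (16.7% called). The astrocyte filament gene Gfap rose by 0.98 ± 0.11 with vehicle and 0.50 ± 0.11 with TGFb. Of 7 oligodendrocyte lineage markers, 1 rose and 3 fell with vehicle (57.1% called) and 0 rose and 1 fell with TGFb (14.3% called). Pdgfra, the receptor that marks oligodendrocyte precursors, changed by -1.97 ± 0.07 and -1.79 ± 0.07 (limma adjusted p = 1.85e-08 and 2.28e-08).

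The fibroblast gene Col1a1 was 1 of 3 tested fibroblast and meningeal markers and changed by -0.48 ± 0.11 with vehicle, a call lost with the authors' values (-0.19, adjusted p = 0.0906). Microglial and endothelial markers, 4 tested of each, gave 0 calls by limma under either treatment and 0 at an unadjusted p under 0.05, and Aif1 and Cdh5 were well above background on no array. The vehicle calls of the stem cell marker Vim, the astrocyte marker Aldoc and the oligodendrocyte lineage marker Olig1 were lost with the authors' values (adjusted p = 0.959, 0.679 and 0.937). In units of the 75th percentile, summed astrocyte markers ran from 54.5 to 58.1 in knockdown cells with vehicle, against 58.5 to 67.6 in control cells. Most of this sum is the signal of Aldoc, whose mean level was 5.90 in control cells with vehicle. The median change of the 6 tested astrocyte markers with vehicle was -0.03. Summed oligodendrocyte lineage markers ran from 41.3 to 43.6 in knockdown cells with vehicle, against 46.3 to 50.2 in control cells. With TGFb both sums overlapped between the lines. The oligodendrocyte lineage sum then ran from 35.5 to 38.9 in knockdown cells and from 37.7 to 38.1 in control cells. The astrocyte sum ran from 52.5 to 58.4 and from 57.4 to 62.4. The part of such cells in these changes was not tested.

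Of 14 tested proneural and early neurogenic factors, 3 rose and 2 fell with vehicle, and 2 rose and 3 fell with TGFb, which is 35.7% called under each treatment, against 27.8% and 29% of all genes. Insm1, a zinc finger factor of newly born neurons, changed by -1.72 ± 0.08 with vehicle and -0.89 ± 0.08 with TGFb (limma adjusted p = 1.08e-07 and 1.33e-05). Btg2, an antiproliferative gene of neurogenic progenitors, rose by 0.91 ± 0.05 and 0.93 ± 0.05.

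The next comparison asked how TGFb acted on these genes within 2.5 h, in each line. In knockdown cells, 1 of the 32 genes rose with TGFb and 2 fell, against 9.49% of all genes called (1144 higher and 1147 lower). In control cells, 2 rose and 4 fell, against 10.2% of all genes called (1311 higher and 1140 lower). The median change was -0.07 in knockdown cells and -0.03 in control cells, and no called change reached 2-fold. Groups did not overlap for 3 higher and 5 lower genes in knockdown cells, where 24.1% of all genes did not overlap, and for 4 higher and 6 lower genes in control cells, where 22.1% did not.

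Bcl11b rose with TGFb in both lines. From the levels given above, its arrays with TGFb all lay above those with vehicle of the same line. The change was 0.72 ± 0.11 in knockdown cells (limma adjusted p = 0.00107) and 0.64 ± 0.11 in control cells (adjusted p = 0.00247), and both probes were called in both lines in the fit over all kept probes, where 9.13% of probes were called in knockdown cells and 9.93% in control cells. With the authors' values the change in knockdown cells was 0.43 (adjusted p = 0.022). Scrt1 changed by 0.26 ± 0.11 in knockdown cells, which was not called (adjusted p = 0.228), and by 0.83 ± 0.11 in control cells (adjusted p = 0.000451). With the slide as a block Scrt1 was also called in knockdown cells (0.49, adjusted p = 0.0126), and with normexp its change in control cells was 0.50 (adjusted p = 0.0135).

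Ebf2 and Ebf3 fell with TGFb in both lines. Ebf2 had levels of -4.00, -3.95 and -4.05 in knockdown cells with TGFb, against -3.59, -3.57 and -3.60 with vehicle. In control cells it had -4.48, -4.75 and -4.65 with TGFb, against -4.13, -4.27 and -4.11 with vehicle. The treatments did not overlap in either line. The change of Ebf2 was -0.41 ± 0.09 in knockdown cells and -0.46 ± 0.09 in control cells (limma adjusted p = 0.00984 and 0.00459), and that of Ebf3 was -0.28 ± 0.04 and -0.35 ± 0.04 (adjusted p = 0.00132 and 0.000211). With the slide as a block the Ebf2 change in knockdown cells was -0.37 and was not called (adjusted p = 0.0927). With normexp its change in control cells was -0.29 (adjusted p = 0.0429), and with only the arrays of the 2 groups that call was lost (adjusted p = 0.0585).

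Scg2 and Elavl3 fell with TGFb in control cells. Scg2 changed by -0.08 ± 0.08 in knockdown cells (limma adjusted p = 0.589) and -0.45 ± 0.08 in control cells (adjusted p = 0.00209). Elavl3 changed by -0.15 ± 0.06 in knockdown cells (adjusted p = 0.212) and -0.32 ± 0.06 in control cells (adjusted p = 0.00771). The Elavl3 call was lost with normexp (-0.25, adjusted p = 0.0812), with the authors' values (-0.23, adjusted p = 0.117), with scaling to the array median (adjusted p = 0.072) and with only the arrays of the 2 groups (adjusted p = 0.0771). The other Elavl4 probe fell in control cells (-0.69 ± 0.09, adjusted p = 0.000447), whereas the brightest did not pass the test (-0.15 ± 0.11, adjusted p = 0.603). With the mean of both probes Elavl4 fell by 0.22 on the log2 scale in knockdown cells (adjusted p = 0.029) and by 0.42 in control cells (adjusted p = 0.00031). In knockdown cells Scg3 changed by -0.12 ± 0.04 and was not called, but was without knockdown TGFb replicate 1 (-0.16, adjusted p = 0.0447) and with array weights (-0.15, adjusted p = 0.0236).

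**Figure D4:**
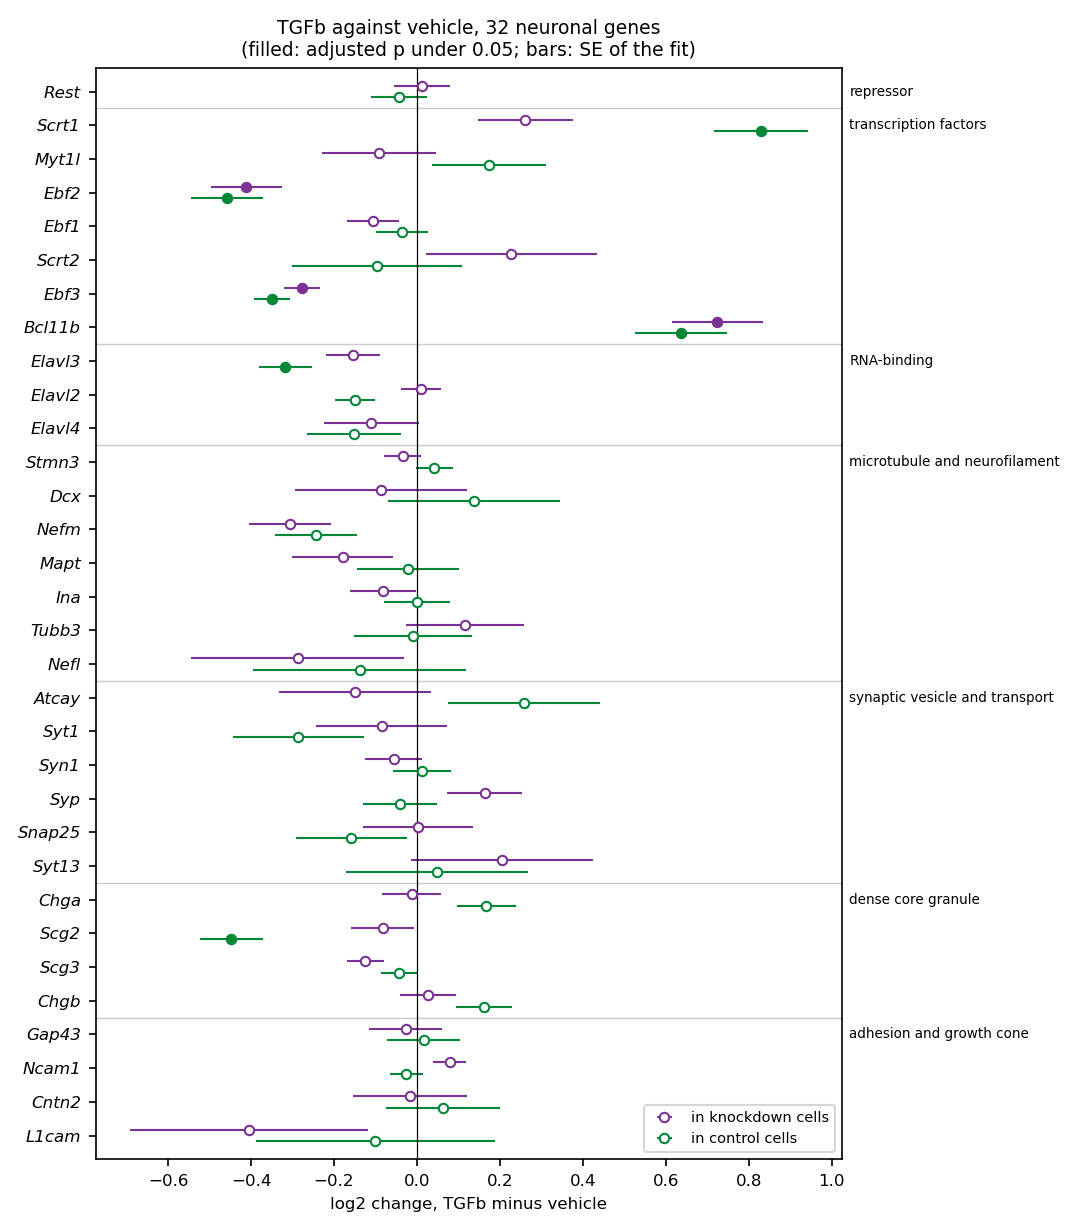
Change with TGFb of each of the 32 tested genes (log2, TGFb minus vehicle), in knockdown cells above and control cells below in each row; bars are the SE of the fit and filled points have an adjusted p under 0.05. Filled points lie between -0.46 for Ebf2 and 0.83 for Scrt1, both in control cells. Rest lies at 0.01 in knockdown cells and -0.04 in control cells.

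Rest was not called with TGFb in either line, at 0.01 ± 0.07 in knockdown cells and -0.04 ± 0.07 in control cells. All 3 calls in knockdown cells and all 6 in control cells kept their direction within each slide that held both treatments. For knockdown cells this was a single slide. The treatments did not overlap for any of these calls, so that the direction within a slide was fixed in advance and adds no support. Slide 1 held vehicle arrays alone and slide 4 TGFb arrays alone, so that slide and treatment are partly confounded in the main fit. With the slide as a block, 3 genes were called in knockdown cells (2 higher and 1 lower) and 6 in control cells. Calls over all genes were then 1905 and 2905, against 2291 and 2451 in the main fit.

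Among the other neuronal genes, 8 rose and 1 fell with TGFb in knockdown cells (24.3% called), and 9 rose and 2 fell in control cells (29.7% called). Over all genes 9.49% and 10.2% were called. Nefh, the heavy neurofilament gene, rose by 2.86 ± 0.18 in knockdown cells and 2.11 ± 0.18 in control cells (limma adjusted p = 1.05e-06 and 1.16e-05), or by 0.98 and 0.69 with normexp. Stx1a, a presynaptic SNARE gene, rose by 1.04 ± 0.08 and 1.34 ± 0.08 (adjusted p = 3.58e-06 and 3.63e-07). Cdk5r1, the activator of the neuronal kinase Cdk5, rose by 0.84 ± 0.06 and 0.53 ± 0.06, and Gad1, which makes the transmitter GABA, by 0.59 ± 0.08 and 0.58 ± 0.08. Of the proneural factors, 2 rose and 2 fell in knockdown cells (28.6% called) and 2 rose and 3 fell in control cells (35.7% called).

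The difference of the TGFb responses between the lines was tested directly. Of the 32 genes 0 were called by limma, where 0.087% of all genes were. An unadjusted p under 0.05 was found for 1233 of all 24146 genes, and for 3 of the 32. Those were Scrt1 (-0.57 ± 0.16, adjusted p = 0.495), Scg2 (0.36 ± 0.11, adjusted p = 0.539) and Elavl2 (0.16 ± 0.07, adjusted p = 0.964). The median SE of such a difference was 0.14 over all genes, against 0.10 for a difference of 2 groups. An effect of TGFb on Scrt1, Scg2 or Elavl3 that was called in control cells alone was therefore not shown to differ between the lines.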

How the data were processed

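RNA of 12 samples, 3 in each of 4 groups, was amplified from an oligo-dT primer, labelled with Cy3 and hybridised to 1-colour Agilent arrays, per the labels' protocols. The deposited scanner files give a background-corrected intensity per spot, read with Feature Extraction 10.7.3.1 on mm9, per the file headers. The authors also deposited a table of log2 values, with 823 empty entries, whose 12 columns each matched their own array best; its background correction is not given in the sources used here. That match was by rank correlation, which gives the direction of the values and not their scale. The 12 columns share a distribution.

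Here each processed signal was divided by the 75th percentile of the gene probe spots on its array and put on the log2 scale. Spots of a probe were averaged, without those marked as outliers. The 29968 probes that stood well above background on every array of 1 group or more were kept, and the brightest of them on average stood for its gene. Members were matched by the file's gene name; otherwise symbols were updated through RefSeq (GRCm38.p6), which matched 26055 probes. A single limma model (version 3.58.1, R 4.3.3, lmFit, eBayes with trend) covered the 12 arrays, with 8 residual degrees of freedom. Two-sided p-values were adjusted by Benjamini-Hochberg over 24146 genes, and called means under 0.05. Precision is limited by the number of arrays. The fit was tested on simulated data.

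All 39 members are named by rule. For the proneural, corepressor and other neuronal lists, up to 4 called genes per comparison were to be named, by size of change. Not all of these genes are given in the text. Cell type markers were named after their values were seen. Members and lists were chosen with earlier results of these data known. Arrays of different groups deviated together where they shared a slide (correlation above 0 in 12 of 12 pairs) but not where they shared a replicate number (above 0 in 6 of 18), so that the numbers were not used as pairs. Alternatives were normexp (offset 50), quantile and median scaling, the filter, the mean of a gene's probes, slide and replicate blocks, no trend, array weights, the authors' values, the 2 groups alone and each array left out.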

Additional observations from a re-analysis of the deposited data

Results flagged for a closer look

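Insm1, a zinc finger factor of newly born neurons outside the list described above, was the proneural gene whose response to TGFb differed between the lines by the test of the difference. Its levels were -1.28, -1.08 and -1.08 in knockdown cells with TGFb, against -1.01, -0.99 and -1.07 with vehicle. In control cells they were -0.39, -0.13 and -0.25 with TGFb, against 0.69, 0.60 and 0.81 with vehicle. The response in knockdown cells minus that in control cells was 0.83 ± 0.11 (limma adjusted p = 0.026).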

How the results depend on the processing

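Among the called members, 18 of 24 calls between knockdown and control cells with vehicle and 15 of 22 with TGFb held under all 24 alternative settings, and Atcay, called in both, held under the 23 that tested it. For TGFb against vehicle, 2 of 3 held in knockdown cells and 4 of 6 in control cells. With arrays left out in turn, between 20 and 24 members were called for knockdown with vehicle, 21 to 23 for knockdown with TGFb, 3 to 4 for TGFb in knockdown cells, 6 to 6 in control cells and 0 to 0 for the difference of responses. Over all genes the ranges were 5204 to 6961, 5393 to 7157, 1613 to 2422, 1833 to 2489 and 4 to 27.

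With the mean of a gene's probes Ncam1 turned to -0.37 with vehicle and to -0.37 with TGFb, and Sin3b to 0.011 with vehicle. With array weights 5 members were called for TGFb in knockdown cells (1 higher and 4 lower), against 3. Scaling to the array median gave fewer calls over all genes: 3951 and 4644 for knockdown with vehicle and with TGFb, 1386 and 1516 for TGFb in knockdown and control cells, and 5 (1 higher and 4 lower) for the difference of responses, against 21 (11 higher and 10 lower). Array weights gave 3645 for TGFb in knockdown cells and 52 for the difference, and the slide as a block gave 45 for the difference. The cause of these changes was not tested.

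With the replicate block, members called numbered 22 and 21 for knockdown with vehicle and with TGFb. For TGFb in knockdown and control cells they numbered 3 and 6, and for the difference 0. Calls over all genes were, in the same order, 5869 and 6151, 1871 and 2060, and 11. Atcay, Dcx, Nefm and Myt1l kept their direction with normexp and with the authors' values, at smaller sizes, and the cause was not tested. Signal over background kept 6 of the 38 members out of the tests. No scaling moved the median of all genes by over 0.1.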
